A study of Oryza sativa with 20 samples.

Results

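A set of 86 miRNA tags kept about the same level at the first and the last of 5 developmental stages of the rice leaf, in the lamina joint and in the blade. They were chosen in 2 steps from the 484 tags with any count among 685 listed. A tag first needed a mean of at least 10 CPM (read counts relative to library sizes that were scaled by the trimmed mean of M values, TMM) over all libraries, which 287 tags had. The ratio of the S5 mean to the S1 mean, with 5 CPM added to both, then had to lie over 0.5 and under 2 in each tissue, which left 86 tags (29.97% of the 287). The levels at S1 and S5 therefore chose the tags and are given as a description, with no test.

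Small RNA was sequenced from lamina joint and blade of the first complete leaf of Oryza sativa seedlings grown in water, at stages named S1 to S5. Tissue was cut on days 4, 5, 6, 7 and 9 after germination, and the labels do not link these days to the stages. At every stage each tissue had 2 libraries of bulk tissue, 20 in all, called library 1 and library 2 by their replicate numbers. No mutant, strain contrast or treatment entered the study, so stage and tissue are the differences between groups. In bulk tissue, fewer cells of a type and less RNA per cell cannot be told apart.

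MicroRNAs are short RNAs that guide Argonaute proteins to matching transcripts, which in plants are mostly cleaved or kept from translation. In plant leaves, miRNAs are known regulators of cell division, organ polarity and the passage between growth phases. The lamina joint connects the sheath of a rice leaf with its blade, and the leaf angle depends on how far it bends. The count files list numbered tags and pair them with no miRNA name or sequence, so no family, sequence or role is given here for any tag.

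**Figure D1:**
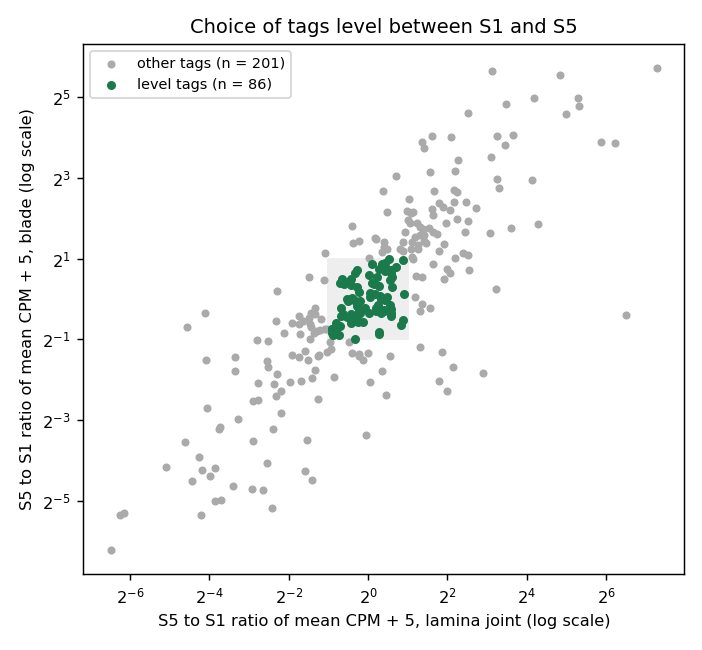
S5 to S1 ratio of mean CPM + 5 in the lamina joint (x axis) and in the blade (y axis), both on log scales, for the 287 tags with a mean of 10 CPM or more. The grey square marks ratios between 0.5 and 2, and the 86 level tags lie inside it.

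Library totals ran from 194799 to 1169330 counts, so that 3 counts amounted to between 3.63 and 18.9 CPM. Replicates were least alike in lamina joint S1, where 29 of the 86 tags lay over 2-fold apart between the libraries, against 8 to 18 in the other groups. Library 2 of lamina joint S1 and library 2 of lamina joint S5 stood apart in a further way. Of the 287 tags, 4 were at least 10-fold higher in library 2 than in library 1 at both of these stages, and all 4 are among the level tags. The summed CPM of tag_044, tag_138, tag_196 and tag_259 was 13437 and 13731 in those libraries and between 156 and 1087 in the other 18. The 1087 CPM were in library 2 of blade S1, against 167 CPM in its library 1. Only the 2 lamina joint libraries were left out together. Leaving out both of these libraries left 62 level tags, 55 of them among the 86. Of the tags named below, tag_018, tag_023, tag_044, tag_047, tag_057, tag_075, tag_089, tag_100, tag_138, tag_196 and tag_659 no longer met the rule without both. The number of level tags and the lamina joint test of the middle stages against S1 and S5 are given with and without these libraries. Stage peaks and dips, overlaps of S1 and S5, shares of counts and ranges over the stages are given with all libraries only. The same holds for the tissue test averaged over all stages.

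The level tags spanned a wide range of abundance, although the highest mean among the other tags, 272175 CPM, lay above theirs. Their mean levels ran from 10.2 to 169634 CPM with a median of 122 CPM, against a median of 102 CPM for the other 201 tags of 10 CPM or more. Of the 86, 17 had 1000 CPM or more, 30 had 100 to 1000 CPM and 39 had less, and 4 were among the 10 most abundant tags of the series. A count was present in all 20 libraries for 75 of them.

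Level on the TMM scale did not mean a constant share of the counts. Together the 86 tags took 46.6% ± 5.19 (SD, n = 2) of all lamina joint counts at S1, against 31.8% ± 0.215 (SD, n = 2) at S5. Their share of blade counts was 39.97% ± 1.70 (SD, n = 2) at S1, against 25.0% ± 0.718 (SD, n = 2) at S5. In both tissues the 2 libraries of S5 had smaller shares than the 8 libraries of the other stages. Scaled by total counts in place of TMM, the median S5 to S1 ratio of the 86 tags was 0.614 in the lamina joint and 0.575 in the blade. On that scale 45 of them fell to or under the ratio of 0.5 in at least 1 tissue and 0 went over 2. The word level is thus tied to the scaling.

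The ratios at the rule's bounds were close to those just outside. Inside the upper bound, tag_430 had a blade ratio of 1.98 and tag_093 one of 1.96, while tag_140, just outside, had 2.01 in the blade. The next tag outside, tag_160, had 2.17 in the lamina joint. Inside the lower bound, tag_089 had a blade ratio of 0.503 and tag_659 a lamina joint ratio of 0.530. Tag_019, with 0.491 in the lamina joint, and tag_029, with 0.475 in the blade, were just outside. With only 2 libraries per group, a ratio inside the bounds does not show that a level stayed the same. The S1 and S5 libraries overlapped for 54 of the 86 tags in the lamina joint (29.6% of all 287 tags did) and for 44 in the blade (21.6% of 287), numbers that the rule itself favours.

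Over all 5 stages, 30 of the 86 tags kept their highest and lowest stage means within 2-fold in both tissues (10.5% of 287), and every tag that does so meets the rule by construction. In the lamina joint taken by itself 42 did (18.8% of 287) and in the blade 46 (20.6% of 287). Their abundance ran from 10.2 to 169634 CPM, and 10 of them had at least 1000 CPM. The 3 most abundant level tags were all in this set.

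Tag_003, with a mean of 169634 CPM, had 173579 and 160474 CPM in lamina joint S1, 144707 and 159124 at S2, 148411 and 178827 at S3, 239105 and 207395 at S4, and 254533 and 234441 at S5. In the blade it had 119051 and 131498 CPM at S1, 119118 and 155229 at S2, 134725 and 167971 at S3, 158513 and 161533 at S4, and 193561 and 150894 at S5. Its lamina joint values were highest at S4 and S5, and its stage mean was the higher in the lamina joint at all 5 stages. Tag_018 had lamina joint means between 53332 CPM at S5 and 72364 CPM at S4, but its replicates at S4 were 100083 and 44645 CPM. Its blade means ran from 39087 CPM at S2 to 71544 CPM at S5. Tag_042 had lamina joint means between 42267 CPM at S5 and 80783 CPM at S4, where 1 library had 110245 CPM and the other 51321. Its blade means ran from 40841 CPM at S2 to 60535 CPM at S1. For tag_018 and tag_042 the spread between the S4 lamina joint libraries was larger than the differences between stage means.

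**Figure D2:**
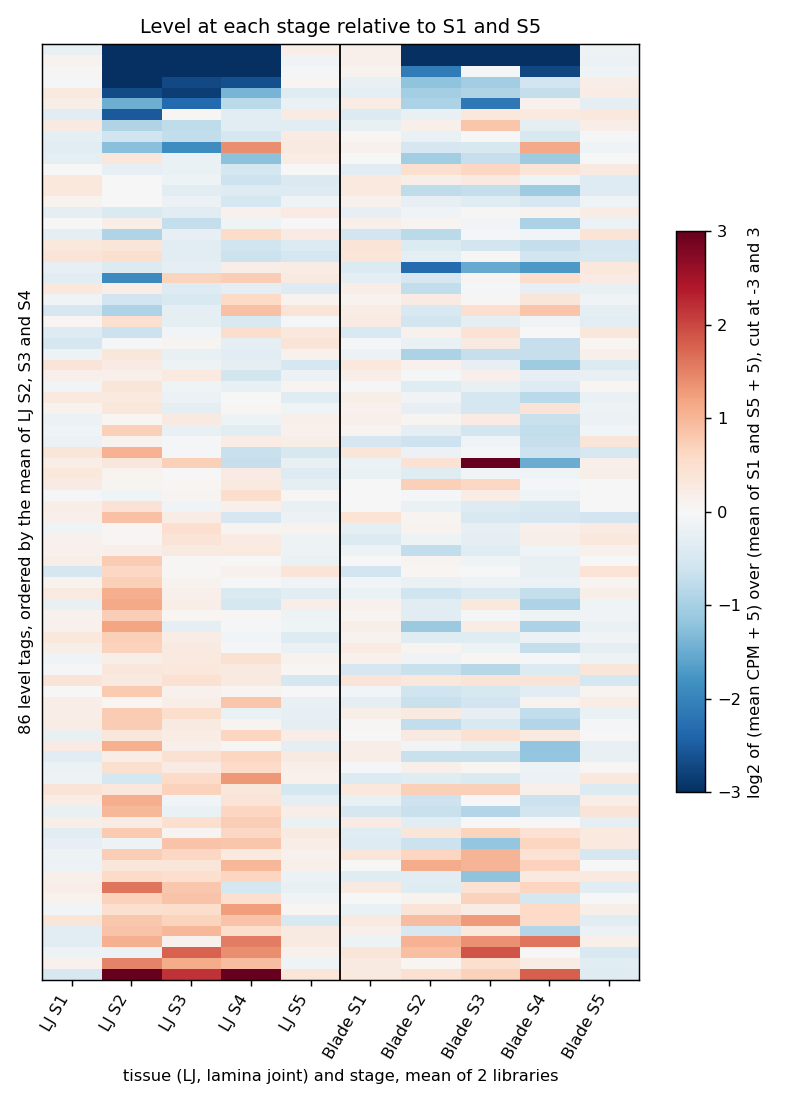
Stage means of the 86 level tags in lamina joint (left 5 columns) and blade (right 5 columns), as the log2 ratio of mean CPM + 5 to the mean of S1 and S5 + 5 in the same tissue; rows are tags, ordered by the mean of lamina joint S2, S3 and S4, and colours are cut at -3 and 3. Most rows stay pale, the dark blue rows at the top include tag_044 and tag_138, and the red row at the bottom is tag_280.

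The first question was whether tags that ended where they began had passed through a peak in between. The highest of the 5 stage means lay at S2 for 34 of the 86 tags in the lamina joint, where 21.6% of all 287 tags had it, at S3 for 11 (10.8%), at S4 for 22 (26.1%), at S1 for 11 (20.2%) and at S5 for 8 (21.3%). In the blade it lay at S2 for 6 (8.01%), at S3 for 18 (13.6%), at S4 for 10 (9.76%), at S1 for 27 (33.4%) and at S5 for 25 (35.2%). The rule leaves out tags that rise or fall steadily, whose highest mean lies at an end, so these shares are a description. Few of the peaks were large. A middle stage at least 2-fold above the mean of S1 and S5, with both of its libraries above all 4 libraries of S1 and S5, was seen for 13 tags in the lamina joint (16.4% of 287) and for 6 in the blade (8.01%). Of the 13, 8 peaked at S2 (5.57%), 2 at S3 (4.88%) and 3 at S4 (5.92%). In the blade 1 peaked at S2 (1.74%), 2 at S3 (3.14%) and 3 at S4 (3.14%), and 4 tags peaked in both tissues (5.57%). Of the 86 tags, 9.3% thus peaked at S2 in the lamina joint, 2.33% at S3 and 3.49% at S4. That is above the share of the 287 tags at S2 and below it at S3 and S4, from few tags each. At any middle stage 15.1% peaked in the lamina joint and 6.98% in the blade, near the shares of the 287. Peaks are measured against S1 and S5, which the rule used, so these shares are a description too. The mirror pattern, a middle stage at least 2-fold below, was seen for 5 tags in the lamina joint (6.27% of 287) and 6 in the blade (10.5%), with 2 in both (2.44%). The 5 include tag_044 and tag_172, with means of 0.608 and 8.97 CPM over S2 to S4 of both tissues. These tags reached the minimum of 10 CPM only through S1 and S5, so a lower middle level was fixed by how they were chosen.

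The average of S2, S3 and S4 was then set against the average of S1 and S5 on the log2 scale, with the quasi-likelihood test of edgeR fitted to all 299 tags that passed a filter on low counts, all 86 among them. The rule used the difference between S1 and S5 and not their average. It drew on the same libraries, so these calls are not independent of how the tags were chosen. In the lamina joint 6 of the 86 tags passed the threshold, where 10.4% of the 299 tested tags did: 1 was higher at the middle stages (3.68% of 299) and 5 were lower (6.69% of 299). With total counts 9 were higher and 5 lower, and with upper quartile factors 2 and 5. The median fitted change of the 86 was 0.01, against -0.02 for the 299 tested tags, and total counts moved the median of the 299 to 0.48.

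Tag_280 was the tag that was higher. It had 29.3 and 7.78 CPM in lamina joint S1, 74.5 and 549 at S2, 161 and 121 at S3, 445 and 160 at S4, and 25.2 and 48.3 at S5. All 6 libraries of the middle stages lay above all 4 libraries of S1 and S5, although the S2 replicates were far apart. The middle stages were higher by 2.86 ± 0.61 (log2, SE; edgeR adjusted p = 0.00962). Without both separate libraries it was 2.90 ± 0.83, with an edgeR adjusted p of 0.0821, and limma-voom did not call it either. In the blade tag_280 had 101 and 95.5 CPM at S1, 130 and 91.8 at S2, 112 and 154 at S3, 412 and 168 at S4, and 30.2 and 92.2 at S5. There the highest values were at S4 and the groups overlapped, and the fitted difference of 1.21 ± 0.54 missed the threshold (edgeR adjusted p = 0.201).

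The 5 tags that were lower at the middle stages of the lamina joint were tag_044, tag_138, tag_172, tag_196 and tag_259, which include the 4 tags of the separate libraries. Tag_138 had 0 and 1723 CPM in lamina joint S1, no count in the 6 libraries of S2, S3 and S4, and 0 and 1491 CPM at S5. Library 2 of S1 held 443 counts of it, at least 1951-fold above a floor of 3 counts summed over the 6 middle libraries (0.883 CPM). In the blade tag_138 had 0 and 78.7 CPM at S1, no count at S2 to S4, and 26.7 and 33.0 CPM at S5. A blade library without a count lay beside one with 78.7 CPM at S1, while both S5 libraries had counts. Tag_044 had 1.54 and 2781 CPM in lamina joint S1, between 0 and 2.54 at S2 to S4, and 75.5 and 3617 at S5. In the blade it had 0 and 191 CPM at S1, at most 1.21 at S2 to S4, and 72.9 and 79.8 at S5. For tag_138 and tag_044 the high lamina joint values at S1 and S5 were in library 2, and the lamina joint S1 library 1 values were no higher than at the middle stages. Over the 12 libraries of S2 to S4 in both tissues the mean was 0 CPM for tag_138 and 0.608 for tag_044, so they reached the minimum of 10 CPM only through S1 and S5. A lower level at the middle stages was therefore fixed by how they were chosen, and no fitted change or p is given.

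The same holds for tag_172, with a mean of 8.97 CPM over those 12 libraries. It had 6.16 and 117 CPM in lamina joint S1, between 0 and 17.8 at S2 to S4, and 6.30 and 67.6 at S5, with the high values in library 2. Of the 5 lower calls, 3 are thus a description, and 2 are of tags that also had 10 CPM or more over S2 to S4.

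These 2, tag_196 and tag_259, had counts in every library and, like tag_172, are named after their values were seen. Tag_196 had 20.02 and 5721 CPM in lamina joint S1, between 15.2 and 96.6 at S2 to S4, and 296 and 5144 at S5 (fitted difference -6.20 ± 1.18, log2, SE; edgeR adjusted p = 0.00486). Tag_259 had 240 and 3213 CPM at S1, between 139 and 320 at S2 to S4, and 233 and 3479 at S5 (-3.04 ± 0.64; edgeR adjusted p = 0.00897). For tag_259 both library 1 values at S1 and S5 lay within the range of the middle stages. Tag_196 met the rule only with the separate libraries, and tag_259 met it with and without them. Both p-values use the S1 and S5 values that the rule also used. In the blade tag_196 was high in 1 of 2 libraries at S1, with 29.0 and 452 CPM, and at S3, with 373 and 60.9 CPM, while its S5 libraries were alike at 201 and 209 CPM.

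Without both of the separate libraries tag_138 had no lamina joint count left and none of the other 4 tags passed the threshold, while 2 others of the 86 were higher at the middle stages. Both are among the 31 tags that no longer meet the rule once these libraries are left out. The 2 others were tag_023 (1.76 ± 0.36, log2, SE) and tag_047 (1.07 ± 0.27), with lamina joint S1 and S5 then at 1 library each. Tag_023 had 214 and 7872 CPM in lamina joint S1, 680 and 1070 at S2, 4976 and 5379 at S3, 4882 and 3160 at S4, and 2090 and 9905 at S5. Its library 1 at S1 was lower than any other lamina joint library and its library 2 at S5 was the highest. Neither tag was higher throughout the middle stages. The S2 libraries lay below library 1 of S5 for tag_023, and for tag_047 with 1444 and 2092 against 6145 CPM. The count of 6 was 1 without library 2 of lamina joint S1 alone, 3 without library 2 of lamina joint S5 and 3 without library 1 of lamina joint S4.

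**Figure D3:**
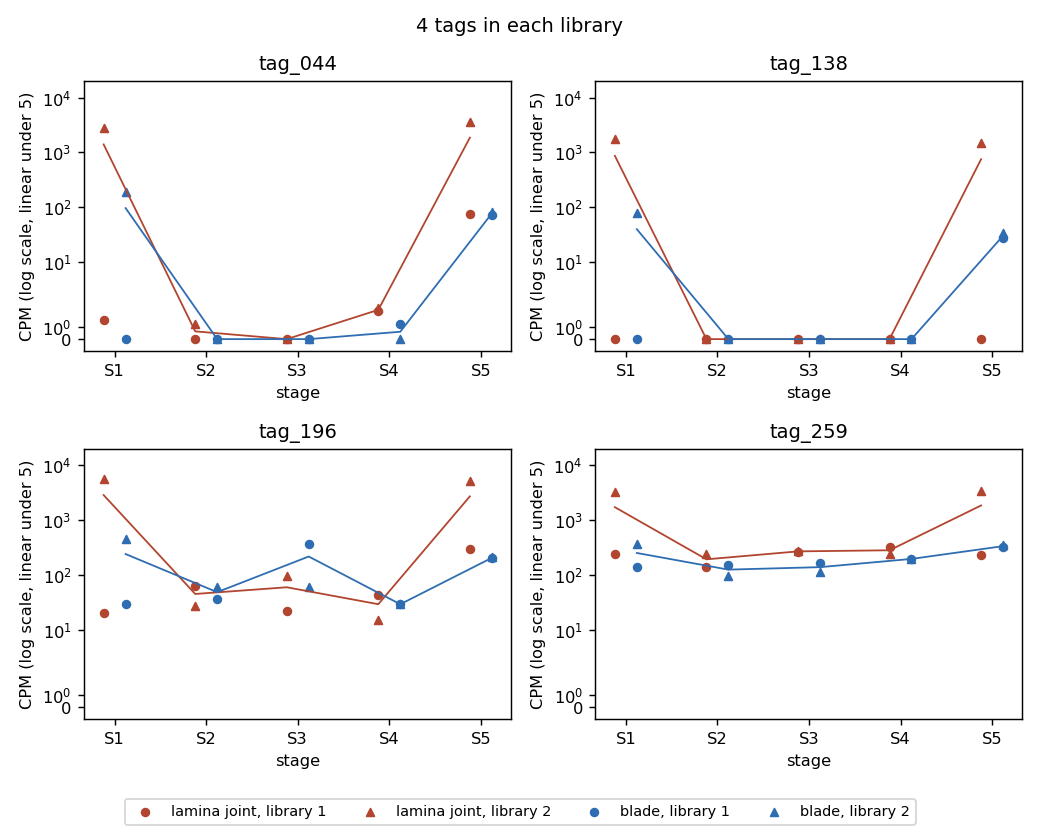
CPM (log scale, linear under 5) of tag_044, tag_138, tag_196 and tag_259 in each of the 20 libraries by stage, with lines through the means of 2 libraries. The triangles of lamina joint S1 and S5, library 2, lie between 1491 and 5721 CPM, above all other libraries.

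In the blade 1 of the 86 tags passed the threshold (5.35% of 299). It was higher at the middle stages (4.01% of 299), and 0 were lower (1.34% of 299; DESeq2 size factors 1 and 1). At an unadjusted p under 0.05, edgeR gave 15 tags in either direction (21.1% of 299). At an adjusted p under 0.05, DESeq2 called 4 lower and limma-voom 0 lower. Tag_640, the tag that was higher, had 13.8 and 14.0 CPM in blade S1, 24.7 and 51.9 at S2, 28.8 and 70.5 at S3, 71.5 and 46.8 at S4, and 16.0 and 20.6 at S5. All 6 middle libraries lay above all 4 libraries of S1 and S5. The middle stages were higher by 1.70 ± 0.38 (log2, SE; edgeR adjusted p = 0.0214). In the lamina joint the same tag had 20.02 and 7.78 CPM at S1, 26.7 and 62.5 at S2, 18.3 and 23.5 at S3, 81.8 and 45.7 at S4, and 25.2 and 22.5 at S5. The S4 mean was the highest, but the middle and end libraries overlapped (0.83 ± 0.41; edgeR adjusted p = 0.232). The blade call was lost without any single library of blade S1 or S5, library 2 of blade S2 or S3, or library 1 of blade S4 (edgeR adjusted p up to 0.0925, fitted difference between 1.47 and 1.93 over all refits).

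Whether the middle-stage difference itself differed between the tissues was tested directly. It passed the threshold for 0 of the 86 tags by edgeR, DESeq2 or limma-voom (0.334% of the 299 by edgeR), and edgeR gave 8 at an unadjusted p under 0.05 (9.7% of 299). For tag_280 the difference between tissues was 1.64 ± 0.78 (log2, SE; edgeR adjusted p = 0.478) and for tag_640 it was -0.87 ± 0.56 (edgeR adjusted p = 0.547). A p that misses the threshold does not show that the tissues acted alike.

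The largest ratios of a middle stage to the ends can rest on 1 library. In the blade the highest ratio among level tags of at least 20 CPM was 8.18 for tag_100 at S3, from libraries of 727 and 43.2 CPM. The blade S1 and S5 values of tag_100 lay between 26.7 and 70.2 CPM, so library 2 of S3 was no higher than the ends.

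The 3 middle stages were then compared with each other, in libraries that the ratio of S5 to S1 did not use. In an F test of edgeR on 2 contrasts, 10 of the 86 tags differed among S2, S3 and S4 in the lamina joint, where 34.8% of the 299 tested tags did. The share of calls among the 86 tags, 11.6%, was smaller than among the tested tags as a whole. The rule leaves out tags that rise or fall steadily, which can also differ among the middle stages. This share and that of the blade are therefore a description. Of the 10, 4 had their highest middle-stage mean at S2, 1 at S3 and 5 at S4. In the blade 1 of the 86 differed, tag_126, against 17.4% of the 299. The lamina joint count was 5 without library 1 and 3 without library 2 of S2, and 3 without library 1 and 5 without library 2 of S4. It was also 5 when only the 6 lamina joint libraries of S2 to S4 were fitted.

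Tag_126 was highest at S4 in both tissues and was the 1 tag that passed in both. In the lamina joint it had 24.6 and 46.7 CPM at S1, 13.4 and 19.1 at S2, 10.2 and 7.83 at S3, 157 and 102 at S4, and 63.0 and 48.3 at S5 (edgeR adjusted p = 0.000114 among the middle stages). In the blade it had 17.97 and 28.1 CPM at S1, 18.5 and 7.98 at S2, 19.2 and 8.01 at S3, 38.8 and 64.4 at S4, and 17.8 and 19.3 at S5 (edgeR adjusted p = 0.0136). In each tissue both S4 libraries lay above the other 8. The fitted step from S3 to S4 was 3.69 ± 0.54 in the lamina joint and 2.06 ± 0.52 in the blade (log2, SE). The lamina joint call held in all 32 refits with other scalings, filters, tools or a library left out, and the blade call was lost without library 2 of blade S4 and when only the blade libraries of S2 to S4 were fitted, with an edgeR adjusted p up to 0.109.

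Tag_275 was highest at S3. In the lamina joint it had 7.70 and 27.2 CPM at S1, 26.7 and 7.66 at S2, 75.4 and 84.9 at S3, 70.5 and 50.8 at S4, and 12.6 and 32.2 at S5 (edgeR adjusted p = 0.0181 among the middle stages). In the blade it had 38.7 and 95.5 CPM at S1, 84.4 and 116 at S2, 150 and 256 at S3, 61.8 and 41.0 at S4, and 42.7 and 28.9 at S5, and did not pass the F test. The S3 libraries of the blade lay above the other 8, as did those of the lamina joint. Its lamina joint call was lost with scaling by total counts, and without library 2 of S2, library 2 of S3 or any S4 library of that tissue (edgeR adjusted p up to 0.221).

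Tag_047 was low at S2 of the lamina joint and high from S3 on. It had 1444 and 2092 CPM at S2, 9815 and 11498 at S3, and 14511 and 7932 at S4 (edgeR adjusted p = 0.014). At S1 its libraries had 958 and 9661 CPM, so that library 1 was like S2 and library 2 like S3, and at S5 they had 6145 and 10020 CPM. The blade values moved over a smaller range, from 4735 CPM in an S2 library to 10066 CPM in an S4 library. The lamina joint call was lost without either library of lamina joint S2 (edgeR adjusted p up to 0.0987).

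Among the tags highest at S2, tag_089 had 886 and 1058 CPM in lamina joint S2, 740 and 488 at S3, and 286 and 442 at S4 (edgeR adjusted p = 0.0304), with 727 and 439 CPM at S1 and 453 and 470 at S5. Tag_057 had 101 and 129 CPM at S2, 71.3 and 30.03 at S3, and 25.0 and 38.1 at S4 (edgeR adjusted p = 0.0441), with 100 and 38.9 CPM at S1 and 25.2 and 48.3 at S5. Both fell over the middle stages while their S1 libraries reached values near those of S2 in 1 library only. Tag_089 lost its call without either library of lamina joint S2 or library 1 of S4, and tag_057 without any of 10 single libraries. The other 5 tags called, tag_071, tag_316, tag_317, tag_430 and tag_493, had edgeR adjusted p between 0.0161 and 0.0460. Each of them lost its call under 5 to 12 of the 32 refits.

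**Figure D4:**
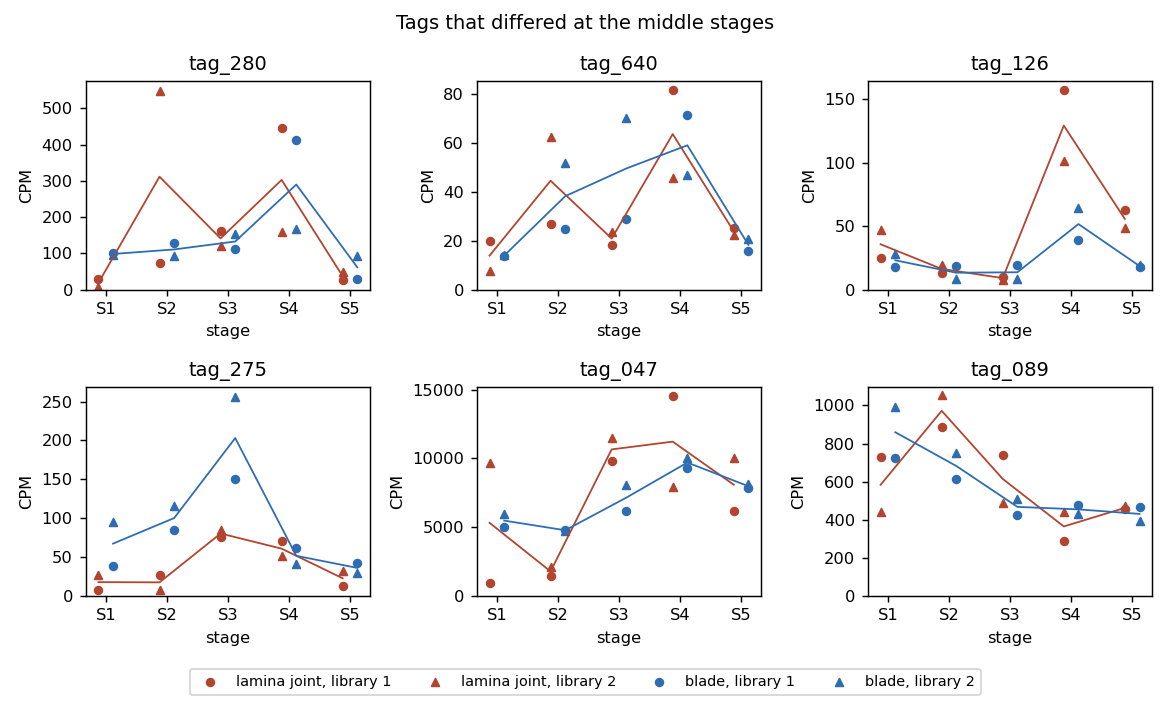
CPM of 6 level tags in each library by stage, with lines through the means of 2 libraries in lamina joint (red) and blade (blue). Tag_126 stands highest at S4 in both tissues, with 157 and 102 CPM in the lamina joint, tag_275 at S3, and the replicates of tag_280 at lamina joint S2 lie far apart at 74.5 and 549 CPM.

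The tissues were compared over S2, S3 and S4, again outside the libraries of the ratio and with their libraries taken as unpaired. With 5 CPM added to both means, 68 of the 86 tags lay within 1.5-fold (79.1%, against 65.5% of 287). The added 5 CPM draws the ratios of tags with low means towards 1. The 68 include tag_138, with no count at S2 to S4 in either tissue. They also include tag_044, with means of 1.01 CPM in the lamina joint and 0.202 CPM in the blade. The lamina joint was at least 2-fold higher for 3 tags (10.5% of 287) and the blade for 3 (5.92%). By edgeR 4 of the 86 differed (18.1% of 299): 3 were higher in the lamina joint (6.02% of 299) and 1 was lower (12% of 299), and DESeq2 size factors gave 6 and 1. The median fitted difference of the 86 was 0.10 on the log2 scale, against 0.01 for the 299 tested tags, and total counts moved the median of the 299 to 0.19.

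Tag_075 was higher in the lamina joint. Over S2 to S4 its lamina joint libraries ran from 48.2 to 97.0 CPM with a median of 74.5, and its blade libraries from 7.98 to 25.6 CPM with a median of 21.5. All 6 lamina joint libraries lay above all 6 blade libraries. The lamina joint exceeded the blade by 1.78 ± 0.38 on the log2 scale (SE; edgeR adjusted p = 0.00452), a call that held in all 32 refits. Without the separate lamina joint S1 and S5 libraries, however, tag_075 no longer met the rule for a level tag. At S1 it had 47.7 and 19.4 CPM in the lamina joint against 33.2 and 5.62 in the blade, and at S5 18.9 and 35.4 against 8.89 and 13.8.

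Tag_188 was higher in the lamina joint over the middle stages, and at S1 its order was the other way. Over S2 to S4 it ran from 126 to 216 CPM in the lamina joint, with a median of 139, and from 39.98 to 94.6 CPM in the blade, with a median of 62.0, again without overlap. The lamina joint exceeded the blade by 1.15 ± 0.23 on the log2 scale (SE; edgeR adjusted p = 0.00351), and this call held in all 32 refits. At S1 it had 63.1 and 117 CPM in the lamina joint and 109 and 160 in the blade, and at S5 126 and 148 against 108 and 89.5. The difference between tissues in the middle stages against the ends was 0.95 ± 0.37 (log2, SE) and missed the threshold (edgeR adjusted p = 0.373). Libraries of S2 to S4 in which the lamina joint lay wholly above the blade were seen for these 2 of the 86 tags (1.74% of 287), and the reverse for 0 (1.05% of 287).

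Tag_275, the S3 tag described above, was lower in the lamina joint, with a median of 60.6 CPM over S2 to S4 against 100 in the blade (-1.34 ± 0.33, log2, SE; edgeR adjusted p = 0.0106). Its libraries overlapped between 41.0 and 84.9 CPM, and at S4 its means were alike. The call was lost without any of 6 single libraries, namely library 2 of lamina joint S2, library 2 of lamina joint S3, either library of lamina joint S4, library 2 of blade S3 and library 1 of blade S4 (edgeR adjusted p up to 0.0869). Tag_049, named after its values were seen, was higher in the lamina joint with a median of 57.9 CPM against 29.7 (0.86 ± 0.28, log2, SE; edgeR adjusted p = 0.0467). Its ranges overlapped, and it lost its call in 15 of 32 refits.

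**Figure D5:**
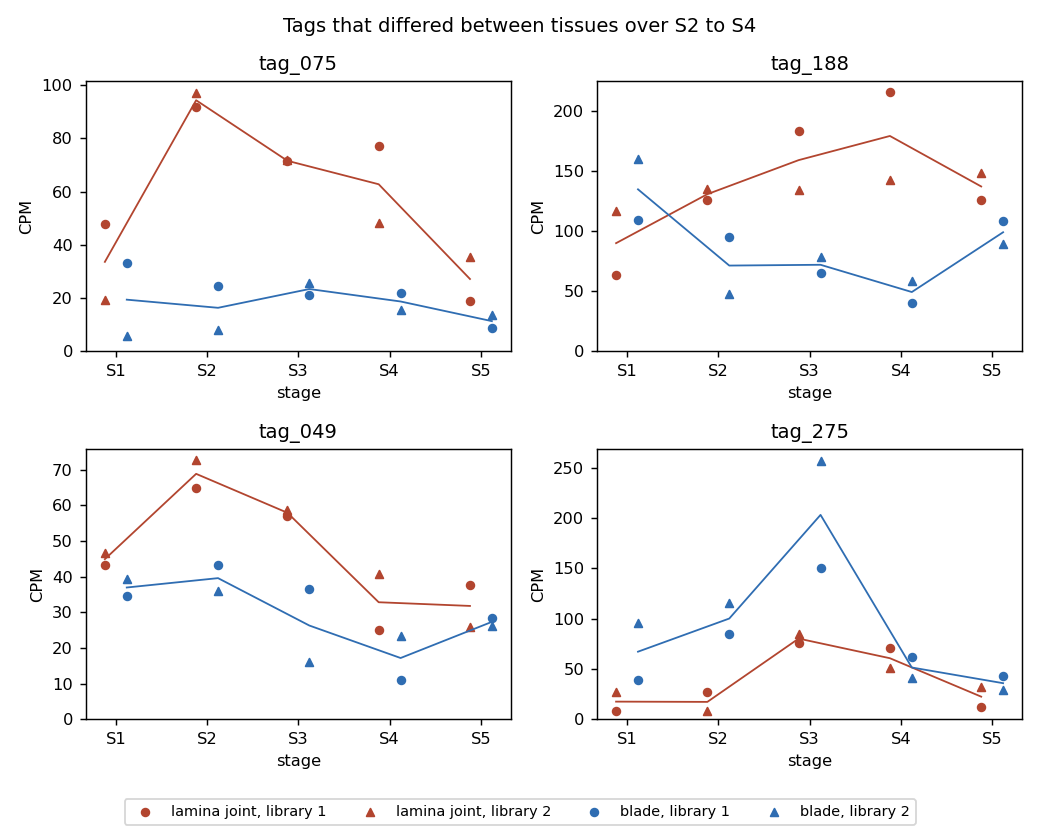
CPM of tag_075, tag_188, tag_049 and tag_275 in each library by stage, with lines through the means of 2 libraries in lamina joint (red) and blade (blue). At S2 to S4 the lamina joint libraries of tag_075 run from 48.2 to 97.0 CPM and those of the blade from 7.98 to 25.6 CPM.

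Averaged over all 5 stages, 11 of the 86 tags differed between the tissues (27.4% of 299): 8 were higher in the lamina joint (11% of 299) and 3 were lower (16.4% of 299). This average takes in the S1 and S5 libraries that the rule used, with the separate lamina joint libraries among them. The calls are thus not independent of how the tags were chosen. Tag_003, the most abundant level tag, exceeded its blade level in the lamina joint by 0.37 ± 0.09 on the log2 scale (SE; edgeR adjusted p = 0.00876) over the 5 stages and by 0.14 ± 0.12 over S2 to S4, where it missed the threshold (edgeR adjusted p = 0.459). Its gap was widest at S5, where the lamina joint mean was 244487 ± 14207 CPM and the blade mean 172227 ± 30170 CPM (SD, n = 2).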

How the data were processed

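The authors deposited whole-number counts per numbered tag for each library, with no header and not normalised. The submitters' processing notes list CASAVA and IRGSP-1.0. Which aligner, miRNA annotation and counter were used is not given in the sources used here. Near-identical miRNAs can share or divide reads. Groups and replicate numbers come from the sample titles. Nothing says that replicates came from separate plants, so a p-value covers no more than the spread among these libraries, and that spread may be technical.

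CPM were computed on TMM-scaled sizes of the 484 tags with any count. Tests used edgeR 4.0.16 in R 4.3.3 (glmQLFit, glmQLFTest, TMM, filterByExpr at min.count 10 and min.total.count 15) in 1 fit of 20 libraries with a mean per group. They were two-sided, with Benjamini-Hochberg adjustment over 299 tags and a threshold of 0.05. Refits used DESeq2 1.42.0, limma 3.58.1 with voom, other scalings and filters, and each library left out. The fit was tested on simulated data, in which no library was set apart from the others of its group. For the middle stages against the ends it recovered 35.7% of 2-fold changes in the lamina joint and 34% in the blade. Among S2, S3 and S4 it recovered 3.33% and 4%, and 45.7% and 47% of 4-fold changes. Between tissues over S2 to S4 it recovered 49% of 2-fold changes. For the tissue difference in the middle stages against the ends it recovered 9.67%. Few calls thus do not show that few tags changed. Figures used matplotlib 3.10.9. The members and lists were chosen with earlier results of these data known. Tags were named by size of change among called tags of at least 20 CPM, 2 per direction, and by abundance. For the F tests the smallest p was used, with up to 2 tags per stage. Others were named by the highest or lowest ratio of a middle stage to the ends, or by nearness to the bounds. Tag_023, tag_071, tag_316, tag_317 and tag_493 were named after their values were seen, as are those said to be. Floors cover counting error only.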

Additional observations from a re-analysis of the deposited data

How the results depend on the processing

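The number of level tags was 86 and stayed between 70 and 95 under the other scalings, added CPM and mean minimum, but 47 with bounds of 1.5-fold, and 71 to 85 without a single S1 or S5 library. The sets differed more than the counts: of the 70 tags chosen with total counts, 41 were among the 86. For the middle stages against the ends in the lamina joint, the count of 6 became 14 with total counts, 0 with limma-voom and 2 without the second lamina joint S1 and S5 libraries, an alternative added after seeing the data, and 1 to 8 without a single library. In the blade the count of 1 became 2 with DESeq2 size factors, upper quartile factors or the replicate block, 4 with total counts, 5 without the filter or without those second libraries, 8 with DESeq2, 3 with limma-voom or only the libraries of the contrast, and 0 to 5 without a single library. Among S2 to S4 the lamina joint count of 10 was 5 with only the libraries of the contrast and 3 to 15 without a single library. The blade count of 1 was 2 with upper quartile factors, a mean of 10 CPM or only the libraries of the contrast, 6 without the filter, 3 with DESeq2 or limma-voom, 4 without those second libraries and 0 to 3 without a single library. Between tissues over S2 to S4 the count of 4 was 7 with DESeq2 size factors or DESeq2, 8 with a mean of 10 CPM, 11 over all 5 stages and 3 to 7 without a single library. The difference between tissues in the middle stages against the ends gave 0, 3 without the filter and 0 to 1 without a single library. The cause was not tested. A group left with 1 library is assumed to vary like the others. Of the refits of called tags, 569 kept the call, 134 lost it and 0 reversed. Tag_138 had no lamina joint count without the second libraries and gave no value there. Replicate numbers were not taken to pair libraries. Deviations of same-numbered libraries correlated above 0.1 in 13 of 45 pairs of groups (-0.26 to 0.56). Between the tissues of the same stage the correlations were 0.56 at S1, 0.14 at S2, 0.25 at S3, 0.32 at S4 and 0.06 at S5. No fit paired the tissues within a stage, and the replicate block spans all stages. The replicate block gave 6, 9, 1, 4 and 0 in the other comparisons, in the order above. Depth limits tags near 10 CPM, where 3 counts can amount to 18.9 CPM.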
